A study of Mus musculus with 59 samples.

Results

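Lung and liver of the same 5 vehicle-treated mice were compared to describe the genes that set the tissues apart before any chemical was given, those of xenobiotic metabolism included. The comparison took the 5 arrays labelled as vehicle lung and the 5 labelled as vehicle liver, 10 of the 59 arrays of the series. The series profiled lung, liver and forestomach after 28 days of daily oral gavage with benzo(b)fluoranthene (BbF), a polycyclic aromatic hydrocarbon, in olive oil. All animals were adult male Muta™Mouse, a transgenic strain that carries a bacterial reporter for mutation assays, and were about 16 weeks old. The vehicle mice (dose 0) received olive oil alone, and their tissue was taken 72 hours after the last gavage, lung from the right lobe and liver from the left. The labels of the series disagree on which hydrocarbon was given, which does not touch the vehicle mice. As a second set of animals, 14 lung and 15 liver arrays of 15 mice given 25, 50 or 100 mg/kg-bw/day were compared in the same way.

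Lung exchanges gas across an epithelium of flat alveolar type I cells and surfactant-making type II cells, laid against a dense capillary bed, while its airways are lined by ciliated cells and secretory club cells. Liver is built mainly of hepatocytes, which make most plasma proteins, the urea cycle enzymes and the bile acids, and which carry out much of the body's oxidation and conjugation of foreign chemicals. Polycyclic aromatic hydrocarbons bind the aryl hydrocarbon receptor (AhR), which induces cytochrome P450 enzymes of the Cyp1 family that oxidise them, and conjugating enzymes then make the products easier to excrete.

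Each array held tissue RNA labelled with Cy5 and a reference RNA, pooled from 11 mouse cell lines, labelled with Cy3, and each value is the log2 ratio of the tissue to the reference. A difference is lung minus liver on that log2 scale, so a positive value is higher in lung. A gene was called when its adjusted p in limma's moderated test was 0.05 or less and its change was 1.5-fold or more. The lungs had 44.8% to 49.7% of probes well above background in Cy5, and the livers of mice 1 to 4 had 40.4% to 45.5%. The liver array of mouse 5 stood apart with 12.5%, although 53.6% of its probes were well above background in the reference channel. Its correlation with the other livers was 0.778 to 0.788, against 0.976 to 0.980 among those 4, 0.952 to 0.964 among the lungs and 0.253 to 0.391 between tissues, so results that turn on it are also given without it. Each slide held arrays of only 1 tissue, and the 5 arrays of a tissue lay on 3 slides. The number of arrays limits the precision of every value.

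The identity genes were examined first. Sftpc (NM_011359), surfactant protein C of type II cells, had log2 ratios of 7.21, 7.04, 7.05, 6.98 and 7.33 in the lungs of mice 1 to 5, and of 0.16, 0.18, 0.24, -0.02 and 0.09 in their livers. Every lung lay far above every liver, and the difference was 6.99 ± 0.09 (SE, n = 5 per tissue, adjusted p = 1.62e-12). Scgb1a1 (NM_011681), the main secretory protein of club cells, stood at 8.35, 8.19, 7.92, 8.21 and 8.23 in lung and between -0.07 and 0.09 in liver, where no array measured it well above background. For such probes a fold is given as "at least", and is the lowest of 3 estimates: the fold of the log2 ratio, and the Cy5 signal of the bright tissue over the lowest signal still measurable in the dim one, taken as scanned and after normalization. Scgb1a1 was at least 283-fold higher in lung (adjusted p = 5.03e-13). Alb (NM_009654), serum albumin, read 6.36, 6.47, 5.96, 6.19 and 7.16 in liver and 0.38 to 0.78 in lung, a difference of -5.94 ± 0.19 (adjusted p = 9.48e-10). Apoa2 (NM_013474), an apolipoprotein of HDL, read 4.17, 4.18, 3.85, 4.11 and 5.92 in liver and 0.05 to 0.60 in lung, a difference of -4.10 ± 0.33 (adjusted p = 1.57e-06), and its other probe gave -6.99. For both genes the liver of mouse 5 had the highest ratio after loess but the weakest Cy5 signal as scanned. Its log2 Cy5 and Cy3 signals were 14.03 and 14.09 for Alb, and 14.16 and 15.95 for Apoa2. In the other livers Cy5 was 17.77 to 18.17 for Alb and 18.09 to 18.45 for Apoa2. Without that array the differences were -5.76 and -3.73. All 4 markers separated the tissues without overlap in the direction of their labels.

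**Figure D1:**
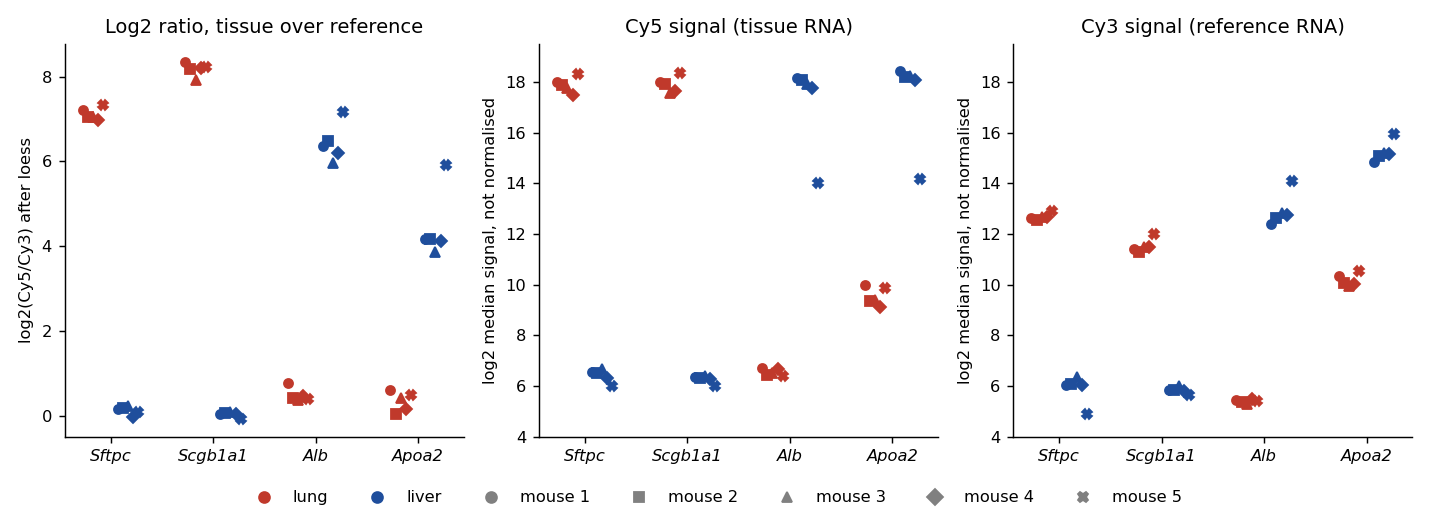
Values of the 4 identity genes on each vehicle array, as the log2 ratio of tissue to reference (left), the log2 Cy5 signal of the tissue RNA (middle) and the log2 Cy3 signal of the reference RNA (right); points are single arrays of lung or liver. Sftpc and Scgb1a1 were high in all 5 lungs and Alb and Apoa2 in all 5 livers, and the Cy3 signal also differed between tissues at these probes.

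The reference RNA was the same on all arrays, yet its Cy3 signal was not the same at the brightest probes. Before normalization the log2 Cy3 signal of Sftpc was 12.54 to 12.90 on the lung arrays and 4.88 to 6.33 on the liver arrays, and that of Alb was 12.38 to 14.09 on the liver arrays and 5.29 to 5.49 on the lung arrays. Of 35 genes called at least 4-fold higher in liver whose log2 Cy5 signal was 16 or more, 31 also had a Cy3 signal at least 2-fold higher on the liver arrays. Their median difference was -6.01 as a ratio and -9.65 in Cy5 alone. Among the 401 such genes with a log2 Cy5 signal below 10, 23 had a Cy3 signal that moved in this way. In lung, 9 called genes differed at least 4-fold and had a log2 Cy5 signal of 16 or more. Of these, 4 had a Cy3 signal at least 2-fold higher on the lung arrays. The median difference of the 9 was 5.90 as a ratio and 5.86 in Cy5 alone. Log2 ratios therefore gave smaller differences than the tissue channel at the brightest liver genes, but not in the median of these 9 lung genes. They were also smaller at 55 such lung genes with a log2 Cy5 signal of 14 to 16, at a median of 4.27 against 5.60 in Cy5. At 12 to 14 (256 genes) the medians were 3.32 and 4.09, and at 10 to 12 (576 genes) 2.99 and 3.70. Below 10 (688 genes) they were 2.59 and 2.58. The cause was not tested.

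The genes that mark each tissue are controlled by known sets of transcription factors, and promoter windows from RefSeq (GRCm38.p6, 250 bases before to 50 bases after the start of the gene) are shown for 4 identity genes and for the pair Cyp1a1 and Cyp1a2, which are neighbours on chromosome 9 and differed in opposite directions. Capitals mark motifs searched on both strands. HNF1 was searched as GTTAATNAT, C/EBP as TTGCNNAA, forkhead as TGTTTNC, NKX2-1 as CTCAAG, the AhR element as TNGCGTG, the CCAAT box as CCAAT and the TATA box as TATAAA. The windows lie at chr5:90460620-90460919 (+) for Alb, chr1:171224804-171225103 (+) for Apoa2, chr14:41131538-41131837 (+) for the surfactant gene Sftpa1, chr6:72304360-72304659 (+) for the surfactant gene Sftpb, chr9:57697363-57697662 (+) for Cyp1a1 and chr9:57683606-57683905 (-) for Cyp1a2.
Alb: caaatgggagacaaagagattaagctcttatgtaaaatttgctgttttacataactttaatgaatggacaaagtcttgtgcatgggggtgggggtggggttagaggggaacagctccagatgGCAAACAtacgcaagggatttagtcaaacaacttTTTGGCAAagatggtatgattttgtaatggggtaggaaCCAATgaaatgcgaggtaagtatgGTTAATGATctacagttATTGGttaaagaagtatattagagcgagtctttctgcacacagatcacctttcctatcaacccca
Apoa2: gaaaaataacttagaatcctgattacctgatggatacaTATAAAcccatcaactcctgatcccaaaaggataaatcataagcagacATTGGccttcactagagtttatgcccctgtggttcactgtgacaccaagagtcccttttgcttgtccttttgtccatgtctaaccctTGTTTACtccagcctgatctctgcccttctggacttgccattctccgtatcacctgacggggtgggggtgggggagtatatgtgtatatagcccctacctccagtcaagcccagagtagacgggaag
Sftpa1: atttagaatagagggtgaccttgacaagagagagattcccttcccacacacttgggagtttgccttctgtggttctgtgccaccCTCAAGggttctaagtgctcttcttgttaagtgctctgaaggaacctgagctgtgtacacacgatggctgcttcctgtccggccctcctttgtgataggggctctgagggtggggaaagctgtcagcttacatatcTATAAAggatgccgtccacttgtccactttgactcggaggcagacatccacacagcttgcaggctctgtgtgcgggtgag
Sftpb: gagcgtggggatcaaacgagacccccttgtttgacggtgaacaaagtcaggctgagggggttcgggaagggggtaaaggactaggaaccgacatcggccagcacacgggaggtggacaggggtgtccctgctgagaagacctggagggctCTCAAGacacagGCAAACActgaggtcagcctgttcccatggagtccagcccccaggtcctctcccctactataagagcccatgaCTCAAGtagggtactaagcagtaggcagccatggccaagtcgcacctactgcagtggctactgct
Cyp1a1: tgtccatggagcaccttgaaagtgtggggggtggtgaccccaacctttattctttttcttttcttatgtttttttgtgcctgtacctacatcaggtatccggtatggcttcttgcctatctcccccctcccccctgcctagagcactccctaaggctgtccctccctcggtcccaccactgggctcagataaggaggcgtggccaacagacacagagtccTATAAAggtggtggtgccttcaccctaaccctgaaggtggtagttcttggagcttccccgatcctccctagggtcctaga
Cyp1a2: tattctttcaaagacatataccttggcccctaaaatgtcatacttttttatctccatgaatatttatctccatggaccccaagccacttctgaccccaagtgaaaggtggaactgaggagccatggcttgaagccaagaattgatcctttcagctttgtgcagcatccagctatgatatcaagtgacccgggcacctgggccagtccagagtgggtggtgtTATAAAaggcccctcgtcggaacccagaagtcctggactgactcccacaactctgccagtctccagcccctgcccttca
In the Alb window the HNF1 letters lie at -32 to -24 from the start, the C/EBP letters at -94 to -87 and the forkhead letters at -128 to -122, with CCAAT boxes at -56 and -15. Apoa2 has forkhead letters at -77 to -71. Sftpb holds NKX2-1 letters at -100 to -95 and at -15 to -10 and forkhead letters at -88 to -82, and Sftpa1 holds NKX2-1 letters at -166 to -161. Both Cyp1 windows have a TATA box, at -30 to -25 in Cyp1a1 and at -29 to -24 in Cyp1a2.

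Across 37163 genes or transcripts, 10686 (28.8%) were called, of which 6409 (17.2% of all) were higher in lung and 4277 (11.5%) in liver. The counts of list members below are to be read beside these shares of 17.2% and 11.5%. The share of calls that were higher in lung was 60%. This split depends on how the arrays are centred: it was 73.0% when each array was centred on its median without loess, and 40.9% when the liver of mouse 5 was also left out. All 5 lungs lay on 1 side of all 5 livers for 12139 genes (32.7%). The balance turned with the size of the difference: 4-fold differences were called for 1584 genes in lung (4.26%) and 1055 in liver (2.84%), but 32-fold differences for 96 in lung and 246 in liver. The median difference over all genes was -0.01. Of 158 genes recomputed under every setting, 36 lost their call with median centring, Alb (adjusted p = 0.0504), Apoa2 (0.0527) and Cyp1a2 (0.181) among them. When the liver of mouse 5 was also left out, 4 lost it with the same sign. Hsp90ab1, Ptges3 and Prdx6 lost it there with a change of sign.

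Among genes measured in both tissues, the widest difference was that of Mgp in lung and of Rgn in liver. Mgp, a matrix protein that inhibits calcification, read 5.91, 6.05, 6.01, 5.85 and 5.66 in lung and -2.37, -2.44, -2.37, -2.49 and -0.87 in liver, a difference of 8.00 ± 0.28 (adjusted p = 1.57e-09). The lungs and livers did not overlap, and the liver of mouse 5 was the highest of the livers. It was followed by Gsn (7.21), the actin-severing protein gelsolin, the carbonyl reductase Cbr2 (6.97), the lysozyme Lyz1 (6.91), Sparcl1 (6.71), Tspan13 (6.63), Sftpd (6.40), a surfactant collectin, Emp2 (6.16), Clic5 (5.97) and Tmsb4x (5.90), thymosin beta 4. In liver, Rgn, the calcium-binding protein regucalcin, read 9.94, 10.10, 10.08, 10.02 and 7.68, against 0.45 to 1.08 in lung, a difference of -8.91 ± 0.42 (adjusted p = 1.64e-08). Hpx (-8.54), the haem carrier hemopexin, Fgg (-8.45), a fibrinogen chain, Tfr2 (-7.87), transferrin receptor 2, Cpb2 (-7.70), an inhibitor of clot lysis, and Fbp1 (-7.65), an enzyme of glucose synthesis, came next. Slc27a2, Sult2a8, Itih3 and Serpina3m completed this group, at -7.57 to -7.32.

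Among genes well above background on every array of 1 tissue and on no array of the other, those with the widest gap in normalized Cy5 signal in lung were Scgb1a1, Sftpa1 (at least 69.8-fold), Sftpb (at least 83.6-fold), the chemokine Cxcl15 (at least 50.4-fold) and Ager (at least 54.0-fold), a receptor of type I cells. In liver they were Mup20 (at least 459-fold) and Mup5 (at least 966-fold), which are major urinary proteins, Ambp (at least 1072-fold), Bhmt (at least 495-fold), betaine-homocysteine methyltransferase, and Serpina3k (at least 859-fold). For all of these the log2 ratio gave the lowest estimate at the brightest probe, the only one used. The median over such genes was 2.49-fold for 960 genes in lung and 25.5-fold for 195 genes in liver, against 2.68-fold and 64.2-fold in the normalized Cy5 signal alone. The other probe of Sftpb differed by 3.79, those of Bhmt by -8.39 and -4.70, and that of Mup20 by -10.84. Mup, Serpina3, Ugt2b, Cyp2c and Gst genes belong to families of near-identical members, and a probe's signal cannot be told apart from that of a close relative.

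**Figure D2:**
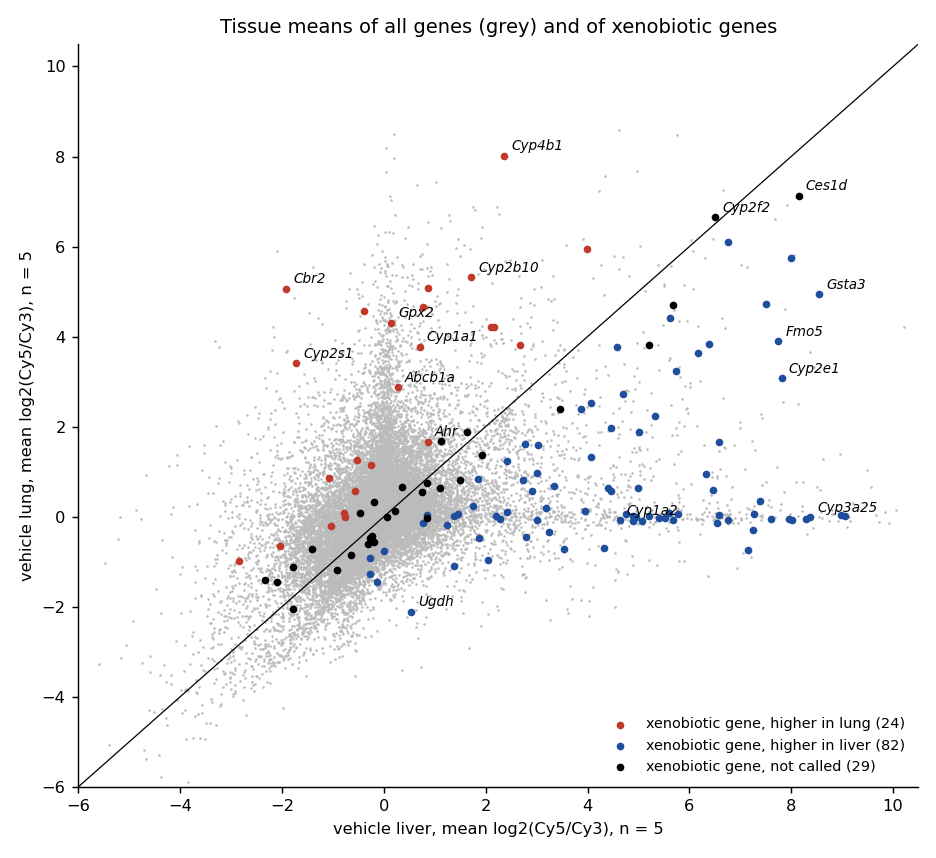
Mean log2 ratio to the reference in 5 vehicle livers (x axis) and 5 vehicle lungs (y axis) for all genes (grey), with the 135 genes of the xenobiotic lists coloured by their call: 24 higher in lung, 82 higher in liver and 29 not called. Most coloured points lie on the liver side of the line of equal ratios.

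The lung epithelium was described by lists of marker genes. All 12 alveolar type II genes were higher in lung, each at least 4-fold, with a median difference of 4.97 (range 2.55 to 6.99). Besides the surfactant proteins they include Abca3 (2.66), which loads surfactant lipid into lamellar bodies, Lamp3 (4.06), a lamellar body membrane protein, Slc34a2, a phosphate transporter that was at least 25.3-fold higher in lung, and Napsa, a protease that processes surfactant proteins and was at least 35.5-fold higher. All 9 type I genes on the array were higher in lung, 8 of them at least 4-fold (median 5.75). Aqp5, a water channel, read 5.45, 5.64, 5.51, 5.38 and 5.73 in lung and -1.83, -1.55, -1.65, -1.67 and -0.23 in liver, a difference of 6.93 ± 0.26. Hopx differed least as a ratio (1.49), with livers at 1.58 to 3.99. As scanned, its mean log2 Cy5 signal was 14.65 in lung and 9.64 in liver. Its mean log2 Cy3 signal was 11.39 on the lung arrays and 7.665 on the liver arrays. In whole tissue, fewer cells of a type and less RNA per cell cannot be told apart.

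Ciliated cell genes differed as a block: 10 of 10 were higher in lung, 9 of them at least 4-fold, with a median of 3.92. Foxj1, the transcription factor of motile cilia, read 4.11, 3.71, 3.09, 3.68 and 3.64 in lung and -0.28 to 0.02 in liver, and was at least 11.2-fold higher in lung. Airway secretory genes were less even. Of 9, 6 were called higher in lung and 3 were not called. Scgb3a1 read 5.08, 5.51, 1.00, 3.08 and 1.95 in the lungs of mice 1 to 5, Muc5b, a gel-forming mucin, 3.96, 4.28, 1.30, 1.60 and 0.94, and Bpifa1, an airway surface protein, 5.37, 6.35, 0.22, 0.82 and 1.64. All 3 were highest in mice 1 and 2, whose lungs shared a slide that held no other vehicle lung. Animal and slide cannot be told apart in this pattern. Bpifa1, measured in 4 lungs and no liver, missed the threshold (adjusted p = 0.0534), as did the antimicrobial lectin Reg3g, measured in 3 lungs (adjusted p = 0.0735). Both passed without lung 3 (0.0190 and 0.0328), Bpifa1 without lung 4 (0.0335) and Reg3g without lung 5 (0.0309), whereas Scgb3a1 (0.0583) and Muc5b (0.0506) did not pass in the Cy5 signal alone. Without the liver of mouse 5 the list held 8 genes higher in lung, Bpifa1 among them (adjusted p = 0.0267), and 1, Aldh1a7, higher in liver.

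**Figure D3:**
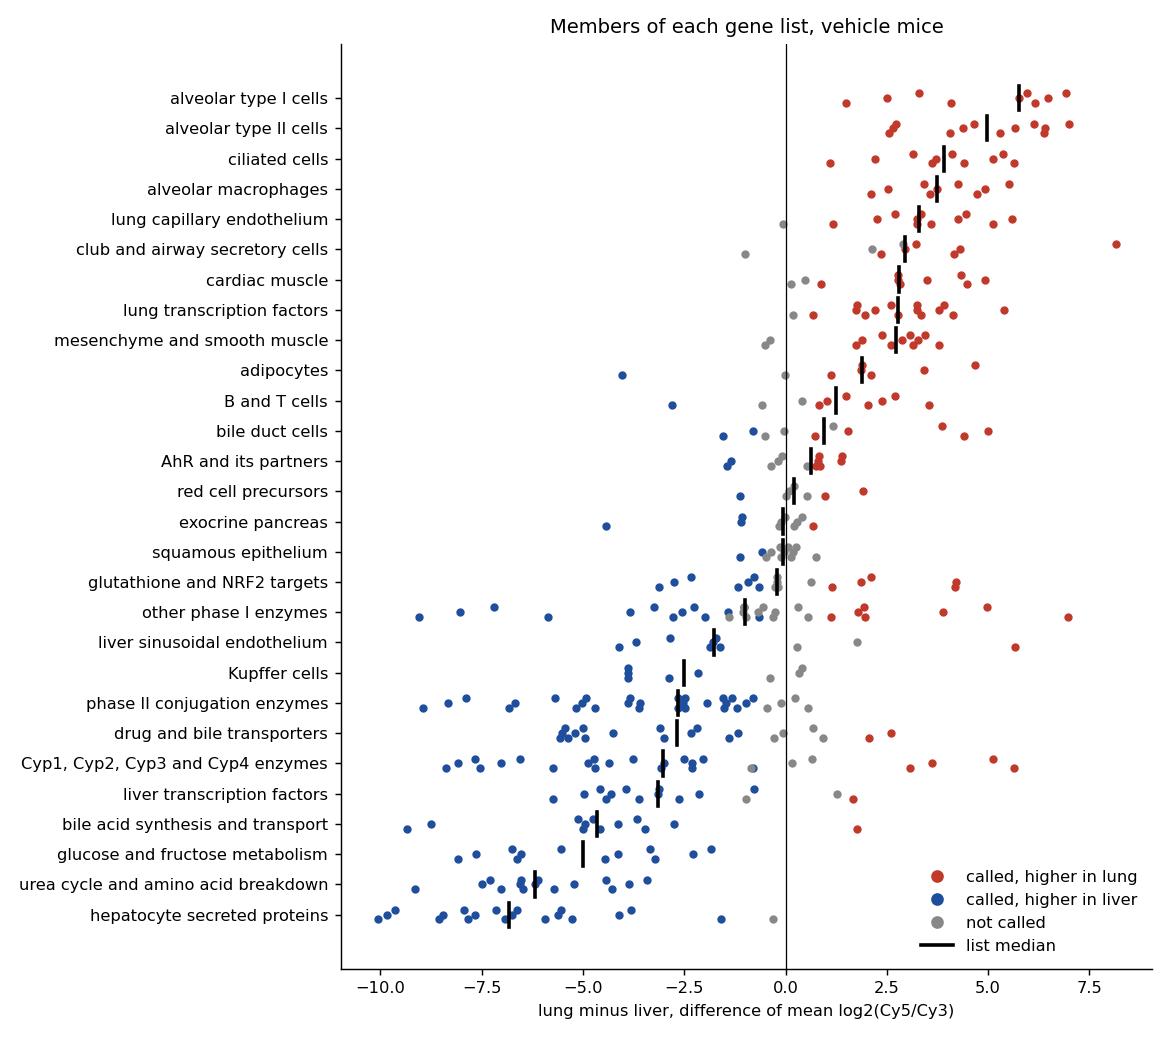
Difference in log2 ratio (lung minus liver, x axis) of each member on the array of the 28 gene lists (y axis), coloured by its call, with the median of each list as a black bar. Members near background in both tissues are included. Medians ran from -6.84 for hepatocyte secreted proteins to 5.75 for alveolar type I cells.

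Endothelial genes were read as 2 lists, which do not tell the type of vessel apart from the amount of endothelium. Of 12 genes chosen for lung capillaries, 11 were higher in lung, 10 at least 4-fold, with a median of 3.29. Cdh5, the junction protein VE-cadherin, read 6.87, 6.94, 6.41, 7.04 and 7.09 in lung and 2.08, 2.17, 2.04, 2.18 and 0.27 in liver (5.12 ± 0.34). Tmem100 was at least 33.3-fold higher in lung. Kdr, a VEGF receptor, did not pass (-0.06), but its brightest probe differed from its other probe, at 3.02. Among 10 genes of liver sinusoids, 7 were higher in liver and 1 in lung (median -1.76). Of the 10, 5 were well above background on every array of a tissue. The scavenger receptor Stab2 read 4.51, 4.66, 4.37, 4.48 and 1.32 in liver and -0.08 to 0.59 in lung (-3.69 ± 0.55), and the lectin Clec4g read 6.17, 6.28, 6.04, 5.81 and 2.47 against 0.96 to 1.60 (-4.11 ± 0.63). Mouse 5 gave the lowest liver value for both. The exception was Lyve1, a hyaluronan receptor that lymphatic vessels also carry, which was higher in lung by 5.67 ± 0.29. The mannose receptor Mrc1 was not called (1.76, adjusted p = 0.0529) and passed without liver 4 (1.98, adjusted p = 0.0497) and without the liver of mouse 5 (1.02), when the count was 2 higher in lung and 7 in liver.

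Resident macrophages also differed by tissue. Each of 9 alveolar macrophage genes was higher in lung by at least 4-fold (median 3.74), among them the scavenger receptor Marco (3.55), Siglecf, at least 6.09-fold higher, and Chil3 (4.92). The other Siglecf probe, measured in 3 lungs and no liver, differed by 0.86. Chil3, a chitinase-like protein, varied widely among the lungs, at 1.10, 1.47, 2.43, 1.08 and 4.28. Of 8 Kupffer cell genes, 5 were higher in liver by at least 4-fold, 0 were higher in lung (0 also at an unadjusted p under 0.05 in limma), and the median was -2.52. Clec4f, a lectin of Kupffer cells, read 3.90, 4.51, 4.53, 5.40 and 0.98 in liver and -0.09 to 0.20 in lung, and was at least 8.77-fold higher in liver. The general macrophage gene Adgre1 (F4/80) differed by 0.40 and was not called (adjusted p = 0.152). Of 10 B and T cell genes, 7 were higher in lung and 1, Cd4, in liver (-2.80, although its second probe gave -0.16). The B cell gene Cd79b differed by 3.53 and the T cell gene Cd3d by 2.38. Red cell genes were mixed, with 2 higher in lung, 1 in liver and 4 not called. Over all genes, 17.2% were higher in lung and 11.5% in liver.

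Marker lists of other tissues were also read, beside shares over all genes of 17.2% higher in lung and 11.5% in liver. Of 12 mesenchyme and smooth muscle genes, 10 were higher in lung (median 2.73), among them Col1a1 (2.60), Myh11 (3.44) and Tcf21 (3.79). Of 10 cardiac muscle genes, 8 were higher in lung (median 2.81), but 1 lung stood apart. Myh6, the heavy chain of heart myosin, read 5.45, 5.81, 0.40, 5.41 and 5.58 in lung, Sln, which regulates the calcium pump, 5.51, 5.83, -0.09, 5.22 and 5.34, and Myl7, an atrial light chain, 4.93, 5.18, 0.14, 3.99 and 4.76. The lung of mouse 3 was near the livers for each of them. The mean log2 ratio of the cardiac list ran from -0.21 to 3.46 over the lungs and from -0.58 to -0.14 over the livers, while the atrial hormone Nppa was well above background in only 2 lungs. The lung of mouse 3 was also lowest for the fat cell genes Cfd (5.77, 7.04, 0.89, 5.53 and 4.64) and Adipoq (2.88, 3.86, 0.00, 1.86 and 1.02), and 6 of 8 fat cell genes were higher in lung (median 1.88). The call of Adipoq was lost without lung 1 (adjusted p = 0.0637), liver 3 (0.0524) or mouse 2 (0.0657). The part of such cells in other lung genes was not tested. Car3, carbonic anhydrase 3 of fat, muscle and liver, was higher in liver by 4.03 ± 0.86, with lung values of 4.16, 4.86, -0.17, 3.39 and 0.92. Of 12 squamous epithelium genes, 0 were higher in lung (1, Lor, at an unadjusted p under 0.05 in limma) and 2 in liver, with a median of -0.07, and no array measured Krt6a, Sprr3 or Dsg3 well above background. Among 10 exocrine pancreas genes, 1 was higher in lung and 3 in liver, and Prss2, Cela2a, Cela3b, Cpa1 and Pnlip were at background on all arrays. The amylase gene Amy2a5, at least 10.1-fold higher in liver by its brightest probe, was the only pancreas gene with a 4-fold difference. Its other probe, measured in 4 livers and no lung, differed by -1.09. Of 10 bile duct genes, 5 were higher in lung and 2 in liver: Krt19 differed by 5.00 and Krt7 by 4.42, both keratins that lung epithelium also makes, and Sox9, measured in 4 livers and no lung, was among those called in liver.

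**Figure D4:**
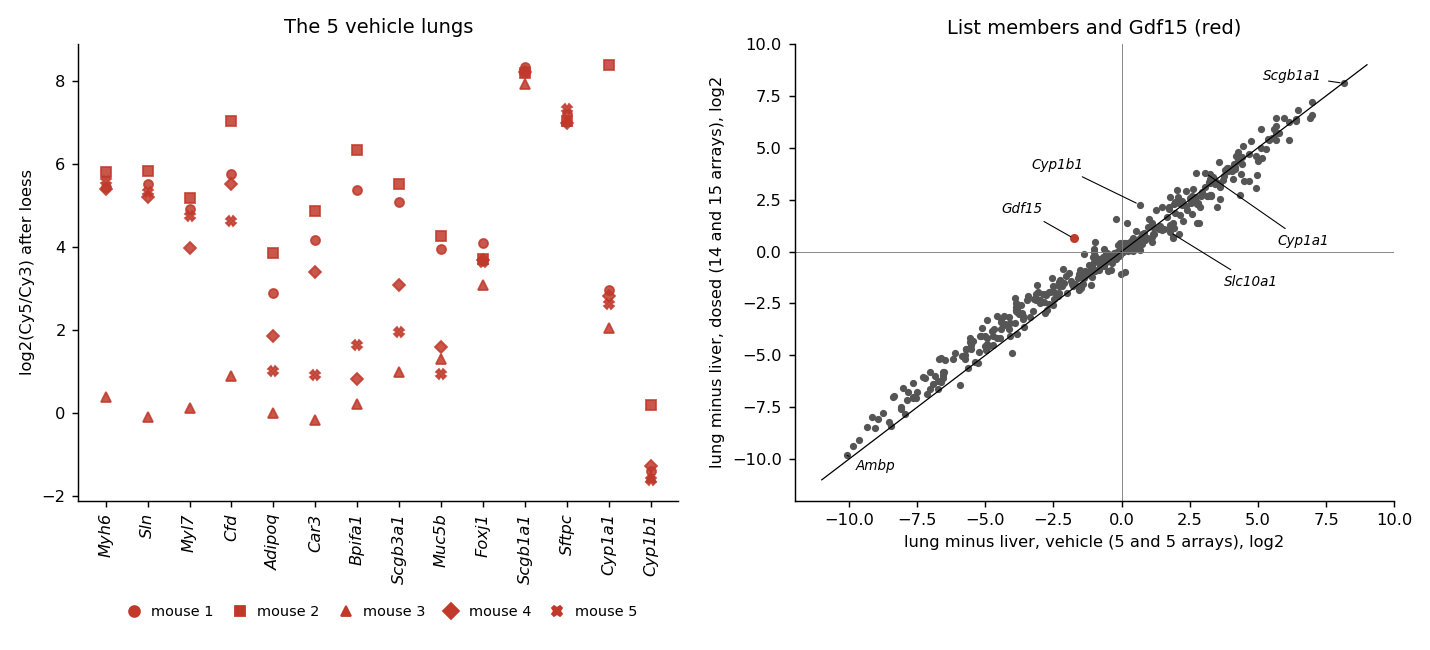
Left, log2 ratios to the reference (y axis) of 14 genes (x axis) in the 5 vehicle lungs, with a marker shape for each mouse. Right, the lung minus liver log2 difference of list members in vehicle mice (x axis) and dosed mice (y axis), with the line of equal differences and with Gdf15 in red. Lung 3 was low for Myh6, Sln, Myl7, Cfd, Adipoq and Car3, lung 2 was high for Cyp1a1, and Gdf15 was the called gene with opposite signs in the 2 sets of animals.

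Hepatocyte genes gave the widest differences of all lists. Of 20 secreted plasma proteins, 19 were higher in liver, 18 of them at least 4-fold, with a median of -6.84. Transthyretin (Ttr) read 7.06, 7.36, 7.10, 7.14 and 6.90 in liver and -0.16 to 0.16 in lung, and was at least 141-fold higher in liver. Apob, the protein of VLDL, differed by -7.85 and F2, prothrombin, by -6.93. The exception was Hp, haptoglobin, at 6.26, 6.02, 6.00, 6.13 and 6.39 in lung and 6.57, 6.57, 6.49, 6.47 and 6.25 in liver. The tissues overlapped, and the difference of -0.31 was under 1.5-fold. Transferrin (Trf) was also high in both tissues, with a difference of -1.58.

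All 15 genes of the urea cycle and amino acid breakdown were higher in liver by at least 4-fold (median -6.18). Cps1, which starts the urea cycle, read 7.54, 7.58, 7.47, 7.44 and 5.00 in liver and -0.17 to 0.12 in lung, and was at least 57.7-fold higher in liver. Ass1 (-5.22) and Asl (-4.29), later enzymes of the cycle, were measured in all lungs. All 12 genes of glucose and fructose metabolism were higher in liver (median -5.00), with Pck1 at -6.75 and G6pc at -5.55. Of 12 bile acid genes, 11 were higher in liver (median -4.67). Cyp7a1, the rate-limiting enzyme of bile acid synthesis, read 4.60, 3.69, 4.55, 4.38 and 0.52 in liver and -0.21 to 0.02 in lung. It was well above background in 4 livers and no lung, and was at least 5.16-fold higher in liver. The bile salt uptake transporter Slc10a1 was the exception by its brightest probe (1.77), but its other probe gave -5.65, so the direction for this gene differed between probes.

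Transcription factors followed the tissues. Hnf4a, a nuclear receptor of hepatocytes, read 4.97, 5.27, 5.04, 5.02 and 4.42 in liver and -0.27 to 0.15 in lung, and was at least 31.3-fold higher in liver. Of 15 liver factors, 12 were higher in liver (median -3.15), among them Nr1h4 (at least 22.5-fold), the bile acid receptor, and Nr1i3 (at least 11.2-fold), a sensor of foreign chemicals. The other Nr1i3 probe differed by -2.72. Foxa1, a forkhead factor of both organs, was higher in lung (1.66), at 4.00, 4.24, 3.67, 4.08 and 3.77 against 2.48, 3.97, 2.33, 2.00 and 0.67. Cebpa was not called (-0.98, adjusted p = 0.326), but 4 livers read 4.96 to 5.28 and mouse 5 read 1.11. Without that array Cebpa differed by -1.79 and was called in liver, and the count was 2 in lung and 13 in liver. Of 15 lung factors, 14 were higher in lung (median 2.78). Nkx2-1, a homeobox factor of lung epithelium, read 4.10, 4.26, 3.98, 4.20 and 4.18 in lung and -0.03 to 0.11 in liver, and was at least 12.6-fold higher in lung. Tbx4, a mesenchymal factor, was at least 20.5-fold higher.

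The binding letters of some of these factors were also counted over promoter windows, as a description. Windows were listed for 1012 of 1358 named genes that were at least 4-fold higher in lung, for 697 of 879 that were at least 4-fold higher in liver, and for 15889 genes in all. HNF1 letters were in 4.02% of the liver windows, 0.395% of the lung windows and 0.743% of all windows. For C/EBP the shares were 14.3% in liver, 8.99% in lung and 9.91% in all. Forkhead letters were in 21.7% of liver, 18.9% of lung and 17.9% of all windows, and NKX2-1 letters in 12.6%, 15.9% and 14.7%. AhR element letters were in 6.17% of liver, 5.14% of lung and 6.43% of all windows. CCAAT boxes were in 44.3% of liver, 32.3% of lung and 38.8% of all windows, and TATA boxes in 14.5%, 12.3% and 12.6%. The windows differed in base composition, with a median GC content of 55.0% in liver, 59.3% in lung and 57.3% in all.

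Genes of xenobiotic metabolism were examined next, in 6 lists that together held 135 genes on the array. Of these, 82 were higher in liver and 24 in lung, beside 11.5% and 17.2% of all genes. Another 29 were not called, and the median difference was -1.42. Without the liver of mouse 5 the counts were 88 in liver and 28 in lung (median -1.76). The 12 genes of AhR and its partners stood apart from the enzymes, with 6 higher in lung, 2 in liver and none by 4-fold. Of the 12, 9 were well above background on every array of a tissue. The median of the list was 0.64, which turned to -0.24 with median centring and without the liver of mouse 5. Over the 18606 genes left by a filter on dim probes, 6348 were higher in lung and 3538 in liver, with a median of 0.21. Ahr itself read 1.45, 1.93, 1.59, 1.82 and 1.54 in lung and 0.92, 1.01, 1.10, 0.97 and 0.29 in liver, so that the tissues did not overlap (0.81 ± 0.16, adjusted p = 0.00144). The call was lost with median centring (0.94, adjusted p = 0.515; 0.18 and 0.346 without the liver of mouse 5), and a second Ahr probe, which 1 lung and no liver measured well above background, gave 0.14 (adjusted p = 0.346). Its partner Arnt differed by 0.53, under 1.5-fold, and by 0.59 without lung 2, where it was called. A second Arnt probe, measured in 5 lungs and 4 livers, gave -0.12 (adjusted p = 0.385). The chaperone genes Ptges3 (0.82) and Hsp90ab1 (0.74) were called higher in lung, but turned to -0.17 and -0.46 with median centring and without the liver of mouse 5. The other Ptges3 probes gave 0.57, 0.11 and -0.08. Also higher in lung were the AhR target Tiparp (1.37) and Nfe2l2 (1.40), which encodes the antioxidant regulator NRF2. Esr1 (-1.44) and Rxra (-1.35), nuclear receptors, were higher in liver. The other Esr1 probes gave -0.45 and 0.08, and the other Rxra probe gave -1.53.

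The Cyp1 enzymes did not share a direction. Cyp1a1, the AhR-induced oxidase of aromatic hydrocarbons, read 2.97, 8.39, 2.06, 2.81 and 2.64 in the lungs of mice 1 to 5 and -0.01, 2.84, 0.72, 0.09 and -0.14 in their livers. Mouse 2 was the highest in both tissues, and its liver overlapped the lungs of the others. Within each of the 5 mice the lung lay above the liver, by 2.98, 5.55, 1.34, 2.72 and 2.78. The difference of 3.07 ± 1.10 was called (adjusted p = 0.0477), also with mouse as a block (adjusted p = 0.00334, and 8.57e-05 without mouse 5). It was 1.92 without the lung of mouse 2 (adjusted p = 0.0214) and 2.45 without mouse 2 in either tissue (adjusted p = 5.53e-05), a choice made after its values were seen. The call was lost with slide as a random block (adjusted p = 0.112), with median centring (0.211, and 0.0635 without the liver of mouse 5), with normexp background correction (0.0520), in the Cy5 signal alone (0.168), in the table processed by the authors (0.0557), and when lung 1, 4 or 5 or liver 1, 3 or 4 was left out (0.0556 to 0.0977). The lung of mouse 1, on the same slide as that of mouse 2, read 2.97. Mouse 2 was also highest among the lungs for Cyp1b1 (-1.40, 0.21, -1.53, -1.28 and -1.60) and for the AhR repressor Ahrr (-0.52, -0.14, -0.54, -0.46 and -0.51). Only 1 lung measured Ahrr well above background. For the AhR target Tiparp mouse 2 was not the highest lung (-0.48, -0.66, -0.71, -0.85 and -0.59). The liver of mouse 2 read 5.29 for Cyp1a2, against 4.98 to 5.04 in mice 1, 3 and 4. Whether its AhR targets differed as a group, and whether the label and exposure of mouse 2 were those of a vehicle animal, was not tested.

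Cyp1a2, the main Cyp1 enzyme of liver, read 5.04, 5.29, 4.98, 5.04 and 2.81 in liver and -0.23 to 0.04 in lung. Every liver lay above every lung, the difference was -4.71 ± 0.40 (adjusted p = 2.13e-06), and it was at least 26.1-fold higher in liver. It is the gene next to Cyp1a1, whose promoter is shown above with it. Cyp1b1 was not called (adjusted p = 0.275), and the livers read -2.27, -2.02, -1.99, -2.25 and -0.36. Without the liver of mouse 5 it was called higher in lung (adjusted p = 0.00793), but it was not well above background in any liver.

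Of 26 Cyp1 to Cyp4 enzymes, 19 were higher in liver, 4 in lung and 3 were not called (median -3.03). The 4 in lung were Cyp1a1, Cyp4b1, Cyp2s1 and Cyp2b10. Cyp4b1, which oxidises aromatic amines and furans in lung, read 7.92, 8.09, 7.73, 7.86 and 8.47 in lung and 3.09, 3.24, 2.61, 2.74 and 0.17 in liver (5.65 ± 0.49, adjusted p = 2.84e-06). Cyp2s1, an extrahepatic P450, read 3.56, 3.53, 3.01, 3.74 and 3.23 in lung and -2.04, -2.43, -1.65, -2.09 and -0.38 in liver (5.13 ± 0.33). Cyp2b10, known as a target of the receptor CAR in liver, was higher in lung by 3.61 ± 0.44, at 5.16 to 5.61 against 3.20, 1.08, 2.01, 2.03 and 0.21. For these 3 genes no lung overlapped any liver. Cyp2f2, the naphthalene oxidase of club cells, read 6.62, 6.64, 6.23, 6.71 and 7.09 in lung and 6.76, 7.03, 6.42, 6.67 and 5.63 in liver. The tissues overlapped, and its difference of 0.16 was not called. It became -0.06 without the liver of mouse 5, -1.17 when arrays were also median-centred, and 1.45 in the Cy5 signal alone, so that its direction is not settled. Among the enzymes higher in liver were Cyp3a25 (at least 96.0-fold), Cyp2c29 (at least 190-fold) and Cyp2d26 (at least 187-fold). Cyp3a11, the main drug-oxidising P450 of mouse liver, read 8.78, 8.30, 7.95, 7.48 and 5.51 in liver and -0.19 to 0.13 in lung (-7.67 ± 0.49). Cyp2e1, which oxidises ethanol, was measured in every lung, at 3.34, 3.95, 2.57, 3.04 and 2.50, and differed by -4.73.

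**Figure D5:**
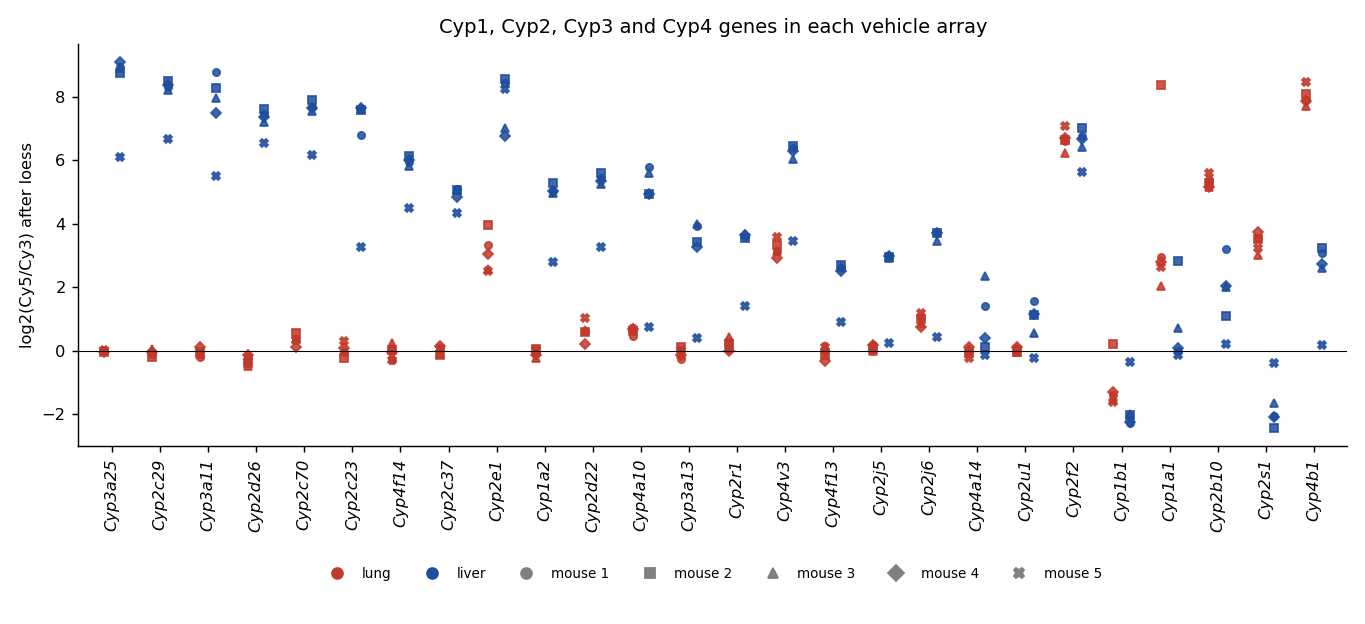
Log2 ratio to the reference (y axis) of 26 Cyp1 to Cyp4 enzymes (x axis) on each of 10 vehicle arrays, coloured by tissue and with a marker shape for each mouse. Cyp4b1, Cyp2s1 and Cyp2b10 lay higher in all 5 lungs, mouse 2 was highest for Cyp1a1 in both tissues, and the liver of mouse 5 lay below the other livers for most enzymes.

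Other phase I enzymes were more evenly divided, with 13 of 30 higher in liver, 7 in lung and 10 not called (median -0.99). Without the liver of mouse 5, 18 were higher in liver and 7 in lung. Por, the electron donor of all microsomal P450 enzymes, was higher in lung, at 1.29, 1.40, 1.10, 1.49 and 1.04 against -0.59, -0.69, -0.03, -0.74 and -0.57 (1.79 ± 0.14). Cyb5a, a second electron donor, was higher in liver (-1.99). Cbr2, a carbonyl reductase, read 5.18, 5.07, 4.77, 5.14 and 5.14 in lung and -2.29, -2.36, -2.37, -2.34 and -0.21 in liver (6.97 ± 0.37), the widest difference of a xenobiotic gene in lung. Of the flavin monooxygenases, which oxidise nitrogen and sulfur, Fmo2 (3.89) was higher in lung and Fmo5 (-3.84) in liver. Fmo1 was higher in lung by 1.95 (adjusted p = 0.0296), a call lost with mouse as a block (adjusted p = 0.0619), with median centring (0.158), and without lung 1, 2 or 5 (0.0635, 0.0515 and 0.0714) or mouse 2 (0.0690), and by 1.24 without the liver of mouse 5. Among carboxylesterases, Ces3a was at least 529-fold and Ces2a at least 140.2-fold higher in liver. Ces1d, which was high in both tissues, read 7.30, 7.02, 6.72, 7.09 and 7.51 in lung and 8.66, 8.71, 8.48, 8.58 and 6.30 in liver. It was not called (-1.02, adjusted p = 0.0791), but was called in liver without mouse 5's array (-1.48, adjusted p = 1.20e-07). The alcohol dehydrogenase Adh4 was at least 82.7-fold higher in liver, and Aldh3a1, an aldehyde dehydrogenase, was higher in lung (1.94). Nqo1, a quinone reductase induced by AhR and NRF2, was not called (-0.27, adjusted p = 0.742), with 4 livers at -1.66 to -1.32 and that of mouse 5 at 1.34, and its difference was 0.30 without that array.

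Phase II conjugation was the most one-sided of the xenobiotic lists. Of 31 enzymes, 27 were higher in liver, 19 by at least 4-fold, 0 in lung and 4 were not called (median -2.65). At an unadjusted p under 0.05, 1 of them was higher in lung (Gsto1, by 0.56, less than 1.5-fold) in limma, and it was called without lung 3 (0.65). The glucuronosyltransferase Ugt2b5 read 9.00, 9.00, 8.89, 8.72 and 5.83 in liver and -0.31 to 0.09 in lung, and was at least 89.6-fold higher in liver. Ugdh, which makes the UDP-glucuronate these enzymes use, differed by -2.65 ± 0.10. Among glutathione transferases, Gsta3 was high in both tissues, at 4.96, 5.20, 4.66, 4.93 and 4.96 in lung and 8.63, 8.64, 8.60, 8.42 and 8.48 in liver (-3.61 ± 0.10), and Gstp1 differed by -3.58, Gstz1 by -3.90 and Gstm1 by -1.47. Gstm2 (0.24) and Gsta4 (-0.45) were not called. The methyltransferase Tpmt (-5.02) was higher in liver, and the sulfotransferase Sult1a1, high in both tissues, differed by -1.21.

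Of 20 drug and bile transporters, 14 were higher in liver and 2 in lung (median -2.67). Abcb11, the bile salt export pump, was at least 31.9-fold, and the organic anion carrier Slco1a1 at least 17.2-fold higher in liver. Abcb1a, the P-glycoprotein of capillary endothelium, read 3.08, 2.49, 2.74, 2.69 and 3.37 in lung and 0.16, 0.22, 0.61, 0.30 and 0.08 in liver (2.60 ± 0.16), and the prostaglandin carrier Slco2a1 was also higher in lung (2.05). Genes of glutathione and NRF2 were divided, with 7 of 17 higher in liver, 5 in lung and 5 not called (median -0.21). In lung stood the peroxidases Gpx2 (4.17) and Gpx3 (4.20), the extracellular superoxide dismutase Sod3 (2.10), G6pdx (1.85) and Prdx6 (1.15), which turned to -0.02 with median centring and without the liver of mouse 5. Gpx2 did not overlap between tissues, at 4.11, 4.51, 3.96, 4.49 and 4.47 against -0.02 to 0.26. In liver stood catalase (Cat, -3.13), Gpx1 (-2.74) and both subunits of glutamate-cysteine ligase, Gclc (-1.18) and Gclm (-2.34).

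In the dosed mice, 6059 genes (16.3%) were higher in lung and 4549 (12.2%) in liver, with dose group in the fit. These mice share no array with the vehicle mice, but their arrays lay on the same single-tissue slides. Tissue and slide therefore cannot be told apart in either set. Of the genes higher in vehicle lung, 85.7% were called the same way in dosed mice, and these were 90.7% of the dosed lung calls. For liver the shares were 84.9% and 79.8%. Medians of the xenobiotic lists were -1.42 in vehicle and -1.11 in dosed mice, and 7 of the 15 dosed livers lay on the weak slide of mouse 5. One gene was called in opposite directions. Gdf15, a stress-induced cytokine and p53 target, read -2.78, -2.23, -2.28, -2.56 and -2.04 in vehicle lung and -1.09, -1.41, -0.63, 0.10 and -0.08 in vehicle liver (-1.76 ± 0.27, adjusted p = 0.000313), and averaged 0.19 in dosed lung and -0.46 in dosed liver (0.63, adjusted p = 0.00319). With median centring the Gdf15 call in vehicle mice was lost (-1.29, adjusted p = 0.130). Its mean log2 Cy5 signal as scanned was 7.38 in vehicle lung and 7.76 in vehicle liver, and its Cy3 signal 10.57 and 9.94. Cyp1b1 differed by 2.26 and Ahrr by 1.57 in dosed mice, and both were called higher in lung there, whereas neither was called in vehicle mice. No vehicle liver measured either gene well above background, and only 1 vehicle lung measured Ahrr. Cyp1a1 differed by 3.78 in dosed and 3.07 in vehicle mice. Whether these differences changed between the 2 sets of animals was not tested.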

How the data were processed

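Gene expression was measured on Agilent SurePrint G3 Mouse two-colour arrays, with tissue RNA in Cy5, Universal Mouse Reference RNA in Cy3 and no dye swap. Scanner files from Feature Extraction 10.7.3.1 were deposited with the median intensity and local background of every spot in each dye, and with flags of spot quality. Processed log2 ratios were deposited by the authors as a separate table, whose columns correlated with r of 0.980 to 0.998 with the values used here. Its scale and direction therefore match sample over reference, with medians of -0.0364 to -0.00718.

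Median intensities without background correction were loess-normalized array by array (limma 3.58.1 in R 4.3.3), leaving out control spots and non-uniform spots. Of 62976 spots, 59305 were not controls, and averaging repeats gave 55681 probes, with 90 missing values over 10 arrays. RefSeq names (GRCm38.p6; the array design is on mm9, so array coordinates are not given) matched 26413 probes to 20018 symbols, the other 29268 kept the array's name, and 37163 genes were represented by their brightest probe. For 57 genes different probes were called in opposite directions.

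The tissues were compared with limma's moderated test over the 10 vehicle arrays with tissue as the only term, adjusted by Benjamini-Hochberg over all probes, and in dosed mice with dose group added. The study's Fs test was not at hand, so limma stands in for it with the study's thresholds of 0.05 and 1.5-fold. All tests are 2-sided. The animals are separate mice, and a number in the titles is the same mouse in both tissues. Deviations of a mouse's arrays from the group means correlated at 0.073, 0.12, -0.045, -0.00035 and -0.12 for mice 1 to 5. For a probe that no array of a tissue measured well above background, a bound was taken from the Cy5 channel after loess and Aquantile, which is open to dye bias without swaps. Because it could exceed the fold of the log2 ratio, the fold printed is the lowest of this bound, the same bound on Cy5 as scanned and the fold of the log2 ratio, a choice made after the data were seen.

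Named genes are, per direction, the 10 largest differences among called genes measured on at least 4 arrays of each tissue without overlap, the 5 largest bounds, the 4 identity markers, and members of 28 gene lists (384 symbols, 378 on the array). The comparison, the lists and the members were chosen with earlier results of these data known, so their counts are descriptions. On simulated data with 100 probes changed 2-fold and 100 changed 4-fold among 55681, the vehicle comparison recovered 89% and 99%, with 4 false calls. The simulated arrays had independent noise of equal spread in both tissues, few changed probes, no weak array and no slide effect. These shares therefore check the fit and do not describe the error rates of the real arrays. Other settings tried were median centring, normexp, the authors' values, a filter on dim probes, the mouse and slide as blocks, all vehicle arrays, and leaving out each array.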

Additional observations from a re-analysis of the deposited data

Results flagged for a closer look

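Among the named genes and markers, 316 groups of 5 arrays were searched for an array whose gap to the nearest of the others was over 0.71 of the whole range, and 91 such arrays were found, although chance alone gives about 1 in 20 groups. Of these, 73 were the liver of mouse 5, the array with weak Cy5 signal.

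The liver of mouse 5 lay below the other livers for most of them. For hepatocyte secreted and metabolic genes its log2 ratios were 7.68 (Rgn), 8.61 (Fgg), 5.64 (Tfr2), 5.63 (Cpb2), 7.11 (Fbp1), 7.36 (Slc27a2), 5.18 (Sult2a8), 6.06 (Itih3), 6.97 (Bhmt), 8.85 (Serpinc1), 5.00 (Cps1), 5.81 (Pck1), 5.82 (Apob), 5.06 (F2), 3.78 (G6pc), 1.30 (Amy2a5) and 0.52 (Cyp7a1). For enzymes and transporters of xenobiotic and antioxidant metabolism its log2 ratios were 2.81 (Cyp1a2), 0.17 (Cyp4b1), 6.12 (Cyp3a25), 6.68 (Cyp2c29), 1.15 (Fmo1), -0.28 (Fmo2), 5.63 (Fmo5), 6.30 (Ces1d), 7.77 (Ces3a), 5.83 (Ces2a), 4.20 (Aldh1a7), 3.44 (Gstz1), 1.75 (Gclc), 1.12 (Sod3), 5.43 (Adh4), 5.83 (Ugt2b5), 4.46 (Sult1a1), 1.47 (Abcc2), 1.71 (Slco1a1), -0.17 (Gpx3), 4.00 (Cat) and 0.54 (Gclm). For regulators and genes of other cell types its log2 ratios were 1.11 (Cebpa), 2.62 (Nr1h4), 0.52 (Rxra), -0.0467 (Esr1), 1.58 (Hopx), -0.00282 (Mrc1), 0.29 (Nr1i2), 1.59 (Nr1i3), 0.29 (Ahr), -0.28 (Foxj1), 0.27 (Cdh5), 1.32 (Stab2) and 2.47 (Clec4g). It lay above the other livers with log2 ratios of -0.94 (Cd79b), -1.92 (Chil3), -2.88 (Col1a1), 5.12 (Cyb5a), -1.31 (G6pdx), 4.52 (Gpx1), -0.0978 (Hsp90ab1), -1.14 (Krt19), -0.68 (Tiparp), -0.87 (Mgp), -2.03 (Gsn), -0.21 (Cbr2), -0.45 (Tspan13), -0.82 (Emp2), 5.92 (Apoa2), -0.23 (Aqp5), -1.55 (Pdpn), 2.27 (Slc10a1), -0.36 (Cyp1b1), -0.23 (Aldh3a1) and 1.34 (Nqo1). The part of its weak signal in these values was not tested.

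The other 18 cases were spread over other arrays. In the lung of mouse 3, cardiac muscle genes were low, with Myh6 at 0.40 (others 5.41 to 5.81), Sln at -0.0906 (others 5.22 to 5.83) and Myl7 at 0.14 (others 3.99 to 5.18), and Cbr2 was at 4.77 (others 5.07 to 5.18). In mouse 2, Cyp1a1 was high in lung at 8.39 (others 2.06 to 2.97) and in liver at 2.84 (others -0.14 to 0.72), with Cyp1b1 at 0.21 and Ahrr at -0.14 in lung (others -1.60 to -1.28 and -0.54 to -0.46). The lung of mouse 5 was high for the hepatocyte genes Serpina3m, at 2.60, and Itih3, at 1.36, and the lung of mouse 1 for Alb, at 0.78. Nppa was at 1.83 in the lung of mouse 2 (others 0.0255 to 0.30) and Lor at 2.65 in the lung of mouse 4 (others 0.75 to 1.06). Smaller deviations were Clec4f at 0.20 in the lung of mouse 4, Cd4 at 2.90 in the liver of mouse 4, Cfd at -0.21 in the liver of mouse 1, and Nkx2-1 at 0.11 and Por at -0.0308 in the liver of mouse 3. No explanation was tested for any of these.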

How the results depend on the processing

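The counts of genes called in vehicle mice kept within 1.5 times of 6409 in lung and 4277 in liver under normexp background correction, the values processed by the authors, Aquantile after loess, the filter on dim probes, slide as a random block, the fit over all 15 vehicle arrays and calls on any probe of a gene. Median centring of each array without loess gave 3420 genes higher in lung and 1268 higher in liver, and for dosed mice the counts were 10492 and 905. The cause was not tested. Leaving out 1 array at a time gave 6207 to 7003 genes in lung and 4110 to 4524 in liver, and leaving out mouse 5 in both tissues gave 6978 and 4524. The filter on dim probes left 18606 genes and moved the median difference of all genes from -0.01 to 0.21.

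The mouse numbers pair the samples, because a number is the same animal in each tissue. With mouse as a replicate block, 6375 genes were called in lung and 4212 in liver, of which 6338 and 4176 were the genes called without it. In dosed mice the block gave 5997 and 4550. Of 158 genes recomputed under each setting, Fmo1 was the 1 that changed its call under the block.

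After the data were seen, 4 more settings were added. Median centring without the liver of mouse 5 gave 4311 genes in lung and 6227 in liver, the block without mouse 5 gave 6992 and 4533, leaving out mouse 2 gave 6061 and 3915, and the Cy5 signal alone, set to equal quantiles between arrays, gave 5775 and 3948. Of 3623 values of these genes under other settings, 3485 kept their direction and side of the threshold. With the same sign, 63 lost the call and 57 gained it. Another 18 changed sign, some of them with a loss or gain of the call. With median centring and without the liver of mouse 5, the sign changed for Hsp90ab1 (-0.46), Ptges3 (-0.17), Prdx6 (-0.0154), Gstm2 (-0.54) and Gsto1 (-0.40). Kdr went from -0.06 to 0.25 with median centring, 0.0324 in the values processed by the authors, 0.00333 without the liver of mouse 5 and 0.0126 without mouse 2, and leaving out an array or a mouse gave -0.11 to 0.0126. The other sign changes were those of Cyp2f2 (0.16) and Nqo1 (-0.27), which the reported comparison did not call. Leaving out an array or a mouse gave -0.17 to 0.29 for Cyp2f2 and -0.54 to 0.34 for Nqo1. Cyp2f2 went to -0.06 without the liver of mouse 5, to -0.17 without mouse 5 in both tissues, with or without the block, and to -1.17 with median centring and without that liver, where it was called. Nqo1 went to 0.15 with median centring, 0.30 without that liver, 0.34 without mouse 5, with or without the block, and 0.0920 with median centring and without that liver. In the Cy5 signal alone the Cyp2f2 difference was 1.45 and was called.

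Signal over background limits the dim genes, for which only bounds can be given. Without the liver of mouse 5, 7003 and 4524 genes were called. Each slide held 1 tissue, and with slide as a random block 6228 and 4172 genes were called.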
